A study of Homo sapiens with 8 samples.

Results

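DNA replication and S phase genes were followed in MHCC-97H, an established human hepatocellular carcinoma cell line, after exposure to lenvatinib. The set holds 40 genes named by symbol, from the E2F factors that switch the programme on to the enzymes that copy the DNA. All 40 are among the 20263 genes of the deposited table, and all 40 passed the filter of a mean of at least 1 CPM (counts scaled to the library total) that left 11827 genes for testing. Lenvatinib is a kinase inhibitor that acts on the VEGF and FGF receptors, PDGFRA, KIT and RET. Cells received DMSO, the solvent, for 24 hours (4 libraries), or lenvatinib at 40, 60, 80 or 100 µM for 24 hours (1 library per dose). The labels give no statement that the DMSO libraries came from separate cultures, so p-values measure only how far these libraries differ, and that may be technical. Lenvatinib has no replicate within a dose, and the 4 doses stand as the 4 libraries of the lenvatinib arm.

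In late G1, cyclin E with its kinase partner releases the E2F factors from the RB proteins, and E2F then switches on the genes of DNA replication, its own included. Origins are licensed when the origin recognition complex, CDC6 and CDT1 load the MCM helicase, which CDC45 and the GINS complex convert into its running form. At the fork, primase and polymerase alpha start each strand, RFC loads the PCNA clamp for polymerases delta and epsilon, RPA coats single-stranded DNA, and ribonucleotide reductase and TYMS supply nucleotides. These genes are high in dividing tumour cells and low in resting hepatocytes. In bulk RNA, fewer cells in S phase and less of these transcripts per cell cannot be told apart.

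The promoters of 4 members are shown because E2F1 and E2F2 were the members called in the comparison of the arms, CDC6 carries an E2F match just inside its transcript, and RRM2 carries none. Sequences are from RefSeq on GRCh38.p14, run from 150 bases before to 30 bases after the gene's start and are written 5′ to 3′ on the gene's strand. Capitals mark matches to the E2F site, searched as TTTCCCGC, TTTCGCGC, TTTGCCGC and TTTGGCGC on both strands.
E2F1, chr20:33686356-33686535, minus strand: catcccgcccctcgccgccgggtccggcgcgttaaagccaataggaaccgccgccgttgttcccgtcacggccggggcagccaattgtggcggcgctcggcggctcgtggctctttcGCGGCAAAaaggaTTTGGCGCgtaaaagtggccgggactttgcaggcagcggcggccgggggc
E2F2, chr1:23531204-23531383, minus strand: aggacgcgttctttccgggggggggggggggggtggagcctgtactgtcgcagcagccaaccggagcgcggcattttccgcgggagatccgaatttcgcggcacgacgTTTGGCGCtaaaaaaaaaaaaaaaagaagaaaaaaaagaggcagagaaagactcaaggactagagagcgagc
CDC6, chr17:40287729-40287908, plus strand: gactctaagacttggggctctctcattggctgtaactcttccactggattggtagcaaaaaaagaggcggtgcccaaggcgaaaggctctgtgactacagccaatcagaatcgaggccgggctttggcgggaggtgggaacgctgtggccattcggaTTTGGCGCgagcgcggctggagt
RRM2, chr2:10122589-10122768, plus strand: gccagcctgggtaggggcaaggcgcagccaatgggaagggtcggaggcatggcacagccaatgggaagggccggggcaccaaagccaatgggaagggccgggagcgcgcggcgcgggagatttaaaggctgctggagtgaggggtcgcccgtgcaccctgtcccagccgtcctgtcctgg

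E2F1 held 2 matches, which begin 33 and 20 bases before the start, and E2F2 held 1, which begins 42 bases before it. In CDC6 the match begins at base 8 of the RefSeq transcript. Over windows from 250 bases before to 50 bases after the start, 34 of the 40 genes had an entry, all but CCNE2, MCM4, MCM5, GINS4, RPA2 and RPA3. An E2F match stood in 18 of these 34 promoters (52.9%), against 5.48% of the 9228 promoters of tested genes and 3.33% of all 27305 promoters. The letters of some matches overlap, as in MCM2, where TTTCGCGC is found on both strands at bases 3 and 7 of the transcript. The CCAAT box (CCAAT) was found in 64.7% of the members' promoters, against 36.6% of those of tested genes, and the GC box (GGGCGG) in 73.5% against 72%. TTTGAA, the core of the CHR element of mitotic genes, was found in 1 of the 34 (2.94%), against 9.05% of tested genes. A match is a run of letters, not a measured binding site.

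Per transcript length, the most abundant members in DMSO were helicase subunits. MCM2 stood at 500.4 ± 41 TPM and MCM7 at 478 ± 34.6 TPM (mean ± SD, n = 4, for these and the next levels). The next in order were MCM5 at 271 ± 66.5 TPM, TYMS at 233 ± 54.2 TPM and PCNA at 188 ± 62 TPM. MCM2 and MCM7 did not differ beyond their SDs, nor did MCM5 and TYMS, or TYMS and PCNA. E2F1 stood at 112 ± 10.9 TPM and E2F2 at 10.7 ± 1.82 TPM. The lowest was CCNE2, which encodes the second cyclin E, at 4.09 ± 3.68 TPM.

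The libraries differed along the GC content of genes before any comparison of the arms, and the members followed this. The GC slope of a library says how its log2 values, taken relative to the 8-library mean, change per 10 percentage points of GC content of the longest transcript. It was 0.28, -0.50, -0.99 and -0.10 in the DMSO libraries. With lenvatinib it was 0.67, 1.82, -0.58 and -0.60 from the lowest to the highest dose. Library totals ran from 10181973 counts at 60 µM to 37384578 at 80 µM, and the number of genes with a read was 11076 at 60 µM and 13290 to 14340 elsewhere. The members' GC content ran from 36.9% (CCNE2) to 65% (POLD1) with a median of 48.2%, near the 49.1% of all tested genes. Of the marker genes listed for hepatocytes, only HNF4A passed the filter, at 1 to 9.83 CPM; albumin (ALB) had 6 reads over all libraries, AFP had 2 and TTR had 0. HNF4A was called lower with lenvatinib with GC adjustment (log2 fold change -2.42, adjusted p = 0.0229, edgeR). Of 4 epithelial markers, the keratins KRT8 and KRT18 stood at 2358 to 8604 and 1332 to 5882 CPM, while EPCAM (at most 0.927 CPM) and CDH1 (at most 1.69 CPM) did not pass the filter. Of 4 immune markers, CD3E and PTPRC had 0 reads, CD14 had 108 reads over all libraries and did not pass, and the macrophage gene CD68 stood at 2.47 to 12.7 CPM and was called lower with GC adjustment (-1.19, adjusted p = 0.024, edgeR). The summed immune markers, most of which is CD68, ran from 5.64 to 13.1 CPM in DMSO and from 2.86 to 10.6 CPM with lenvatinib. Summed fibroblast markers were higher, from 39.25 to 47.2 CPM in DMSO and from 39.28 to 54.7 CPM with lenvatinib, with COL1A1 at 23.9 to 42.5 CPM. Summed endothelial markers ran from 1.44 to 2.68 CPM and from 0 to 4.06 CPM. The part of these markers in the members' values was not tested.

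**Figure D1:**
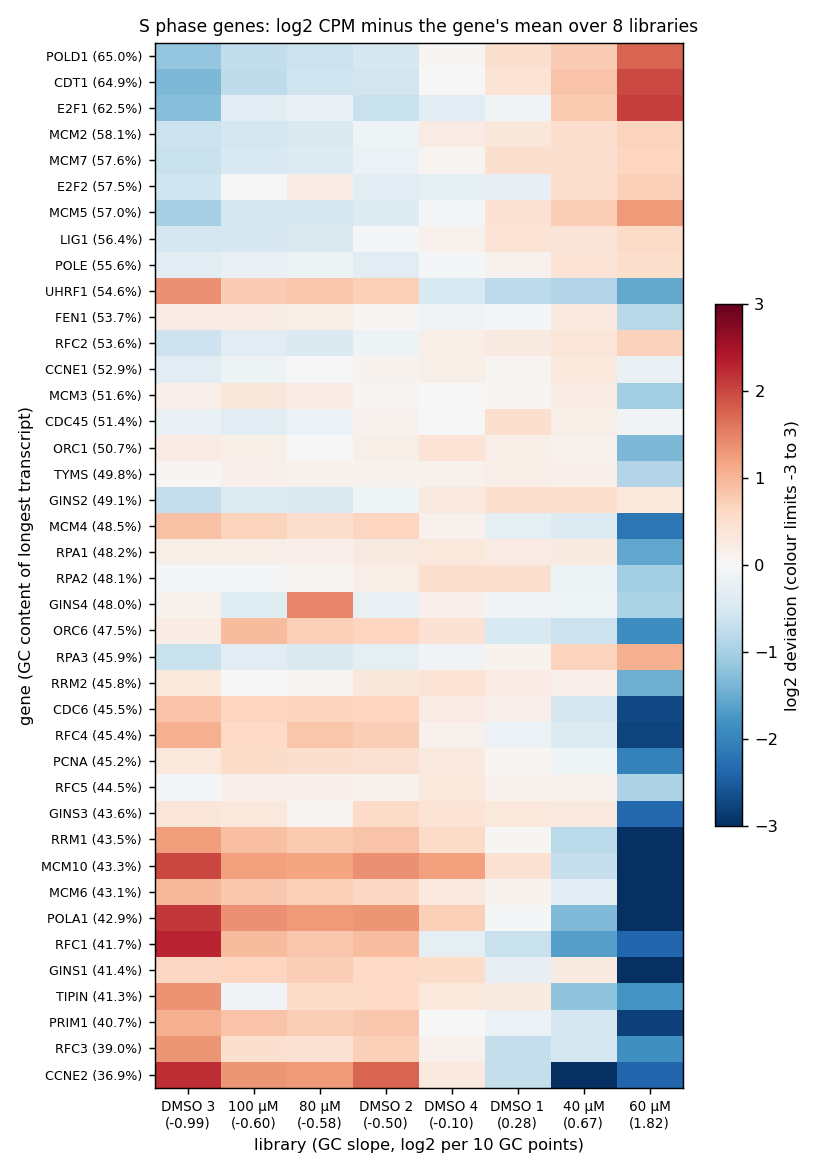
Log2 CPM of each of the 40 genes minus its mean over the 8 libraries (colour), with genes sorted by GC content from high at the top to low at the bottom and libraries sorted by GC slope from left to right. Most GC-poor genes are blue in the 60 µM library on the right and red in DMSO library 3 on the left, while CDT1, POLD1 and E2F1 at the top run the other way.

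In the heat map of deviations from each gene's mean, the 60 µM library stood apart. There, 28 of the 40 members lay below their own mean, and the median deviation was -1.20 on the log2 scale, against -0.55 over all tested genes. The 24 members with a GC content under 50% had a median deviation of -2.10 in this library, and the 16 members at 50% or more had one of 0.61. In DMSO library 3, which has the lowest GC slope, the same groups stood at 0.75 and -0.55. Not every member went with its group. ORC1 (-1.34), MCM3 (-1.05), FEN1 (-0.82) and UHRF1 (-1.53), all above 50% GC, had their lowest deviation at 60 µM. RPA3, under 50%, had its highest there (1.06).

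The main comparison asks whether S phase genes differed between the 4 lenvatinib and the 4 DMSO libraries. Without regard to GC content, 0 of the 40 members were called at an adjusted p under 0.05, and neither was any of the 11827 genes tested (0%; edgeR's quasi-likelihood test with Benjamini-Hochberg adjustment). DESeq2 called 0 members and 94 genes in all (0.799%), and limma-voom called none. At an unadjusted p under 0.05 edgeR had 2 members, E2F1 and E2F2, both higher, and 370 genes higher and 153 lower in all. The log2 fold change (lenvatinib over DMSO) was positive for 13 members and negative for 27, with a median of -0.23, beside -0.11 over all tested genes. Over the 40 members this fold change followed GC content (Pearson r = 0.83, beside 0.61 over 11823 tested genes). Both are given as a description, since all genes share the same 8 libraries. Members under 50% GC had a median of -0.44 and those at 50% or more a median of 0.16.

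With the library's GC slope as a covariate, E2F1 and E2F2 were higher with lenvatinib. These 2 of 40 members were the ones called, beside 1.48% of all tested genes called higher and 3.26% called in either direction, and 0 members were called lower, beside 1.78%. E2F1, the founding activator of the E2F family, had a log2 fold change of 0.56 ± 0.11 (SE; adjusted p = 0.0361, edgeR with Benjamini-Hochberg adjustment). E2F2, a second activator E2F, had 0.57 ± 0.11 (adjusted p = 0.0392). Both calls are lost when any 1 DMSO library, the 80 µM library or the 100 µM library is left out, with adjusted p up to 0.248 for E2F1 and 0.283 for E2F2, while the log2 fold changes stay between 0.51 and 0.68 and between 0.51 and 0.69 over 16 alternatives of this fit. Under the other form of GC adjustment, offsets that follow GC content smoothly in each library, without the covariate, neither was called: E2F1 had 0.79 ± 0.18 (adjusted p = 0.159, edgeR) and E2F2 had 0.50 ± 0.18 (adjusted p = 0.388). DESeq2 with the same covariate called 4 members, beside 17.2% of genes, namely E2F1 and E2F2 higher and MCM2 and LIG1 lower. Limma-voom called E2F1 and E2F2, beside 7.02% of genes. The median over the 40 members was -0.06 in edgeR's fit, as over all tested genes (-0.06), with 13 members positive and 27 negative. The correlation with GC content was 0.34 over the members in this fit, beside -0.0038 over 11823 tested genes.

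**Figure D2:**
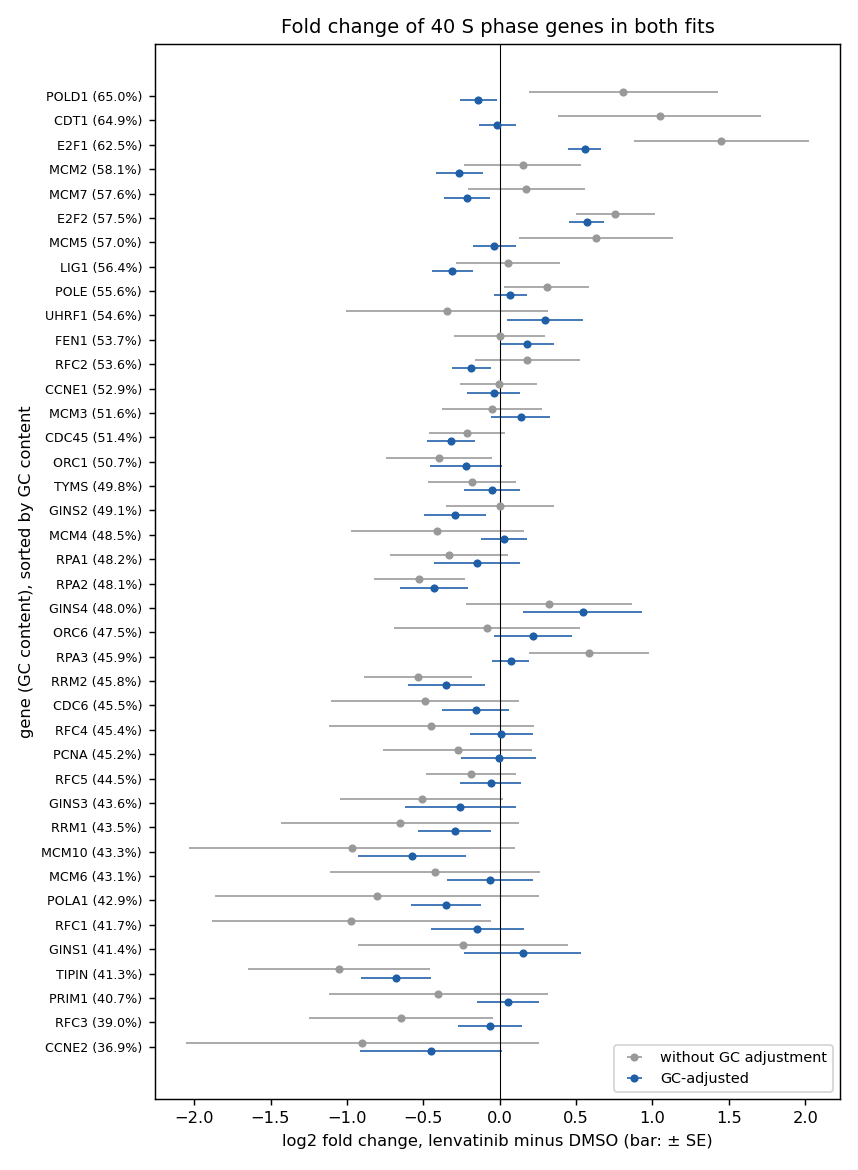
Log2 fold change of lenvatinib over DMSO (horizontal axis, bars ± SE) for the 40 genes, sorted by GC content, without GC adjustment in grey and GC-adjusted in blue. The grey points run from negative among the GC-poor genes at the bottom to positive among the GC-rich genes at the top; among the adjusted points E2F1 (0.56) and E2F2 (0.57) were called.

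Among the E2F factors, E2F1 stood at 212, 143, 93.8 and 182 CPM in DMSO libraries 1 to 4 and at 390.5, 954, 198 and 183 CPM at 40, 60, 80 and 100 µM (CPM values here and below are TMM-scaled, and libraries are given in this order). The arms overlap on this scale, since 198 and 183 CPM lie within the DMSO range. In counts per library total all 4 lenvatinib libraries lie above DMSO for E2F1 and E2F2, 2 of the 40 members, beside 4.96% of tested genes. In TPM, the deposited level per length, E2F1 was 95.8 to 120 in DMSO and 192, 366, 183 and 164 with lenvatinib, with no overlap. This held for 1 of the 40 members in TPM, and the share of all tested genes was not computed on that scale. The log2 fold change without GC adjustment was 1.45 ± 0.57 (SE; adjusted p = 0.874, edgeR). It was 0.71 ± 0.38 without the 60 µM library and 0.30 ± 0.34 with the 80 and 100 µM libraries alone.

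E2F2 stood at 32, 30, 25.4 and 31.5 CPM in DMSO and at 55.5, 62.9, 44.8 and 38 CPM with lenvatinib. All 4 lenvatinib libraries lie above all 4 DMSO libraries in CPM, which held for 1 of 40 members and for 3.08% of tested genes. In TPM the arms overlap, with 8.44 to 12.5 in DMSO and 13.1, 11.6, 20 and 16.4 with lenvatinib. The log2 fold change without adjustment was 0.76 ± 0.26 (adjusted p = 0.874, edgeR).

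The cyclins E, which drive cells into S phase with CDK2, were not called. CCNE1 ran from 32.3 to 46.2 CPM in DMSO and from 35.9 to 51.1 CPM with lenvatinib, and its GC-adjusted log2 fold change was -0.04 ± 0.17 (SE). CCNE2, the most GC-poor member, ran from 1.16 to 9.3 CPM in DMSO and from 0.0855 CPM at 40 µM to 4.98 CPM at 100 µM. The arms overlap for both genes.

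**Figure D3:**
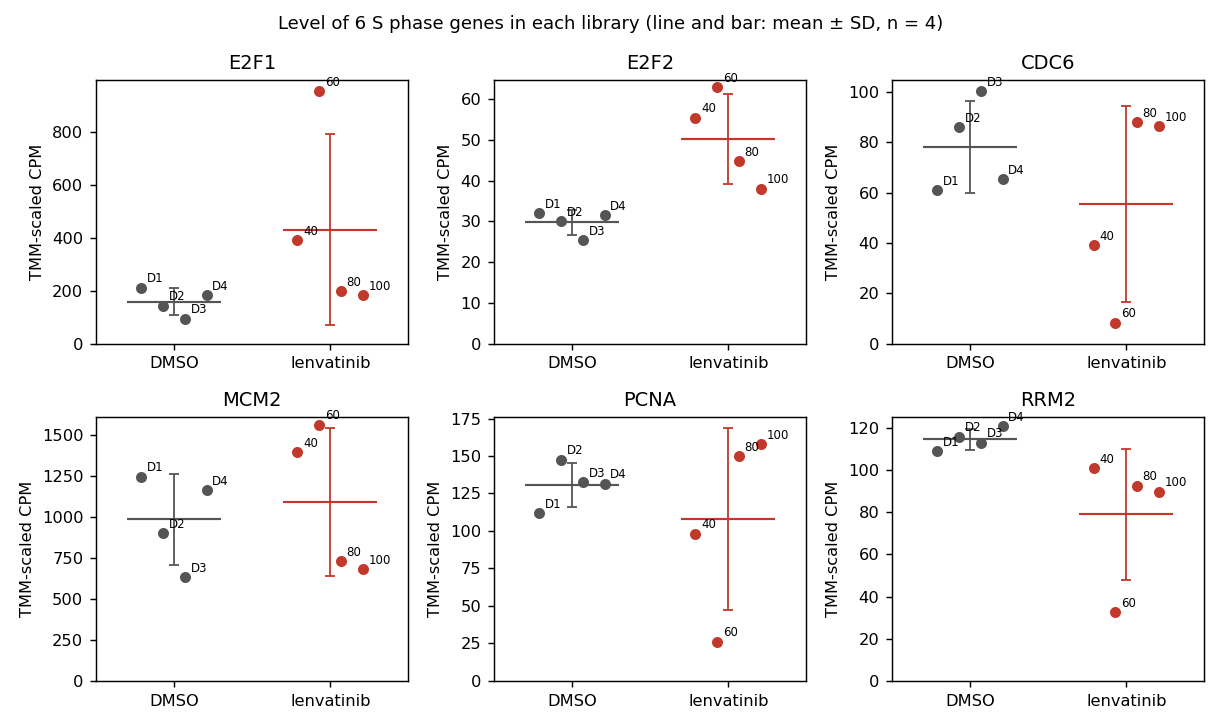
TMM-scaled CPM (vertical axis, linear from 0) of 6 genes in each library, with DMSO libraries D1 to D4 in grey and lenvatinib libraries labelled by dose in µM in red; lines and bars are the mean ± SD over 4 libraries. E2F2 does not overlap between the arms and is higher with lenvatinib, RRM2 does not overlap and is lower, and in CDC6, PCNA and RRM2 the 60 µM point lies below all the others.

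CDT1, which brings MCM rings to origins, is a licensing factor with about the GC content of E2F1 (64.9% and 62.5%). It stood at 344, 179, 102 and 260 CPM in DMSO and at 473, 1028, 173 and 154 CPM with lenvatinib. Its log2 fold change was 1.05 ± 0.67 without adjustment and -0.02 ± 0.12 with it (SE), and it was called in neither. DMSO library 2 is the DMSO library whose GC slope (-0.50) is nearest to those at 80 and 100 µM (-0.58 and -0.60). Against this library E2F1 was higher at both doses (143 against 198 and 183 CPM) and so was E2F2 (30 against 44.8 and 38 CPM), while CDT1 was lower at both (179 against 173 and 154 CPM). This rests on 1 DMSO library and was not tested. In the other DMSO libraries E2F1 stood at 212 CPM in library 1, above both doses, at 93.8 CPM in library 3 and at 182 CPM in library 4.

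The ratio to the member nearest in GC content, taken within each library, was computed after these values had been seen. It was taken for E2F1 and E2F2 because they were the members called in the same libraries. Its p-values therefore give no independent support, and their adjustment does not cover the other members. For E2F1 over CDT1 the ratio of counts was 0.615, 0.798, 0.923 and 0.701 in DMSO and 0.825, 0.928, 1.15 and 1.19 with lenvatinib. The mean log2 ratio differed by 0.43 (exact two-sided permutation test, n = 4 and 4, p = 0.0571, adjusted over the 2 ratios p = 0.0857). For E2F2 over MCM7 the ratio was 0.0304, 0.0446, 0.0532 and 0.0395 in DMSO and 0.0522, 0.0527, 0.0777 and 0.0686 with lenvatinib. The mean log2 ratio differed by 0.59 (exact two-sided permutation test, n = 4 and 4, p = 0.0857, adjusted p = 0.0857). Both ratios overlap between the arms, at the 40 µM library for E2F1 and at the 40 and 60 µM libraries for E2F2.

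**Figure D4:**
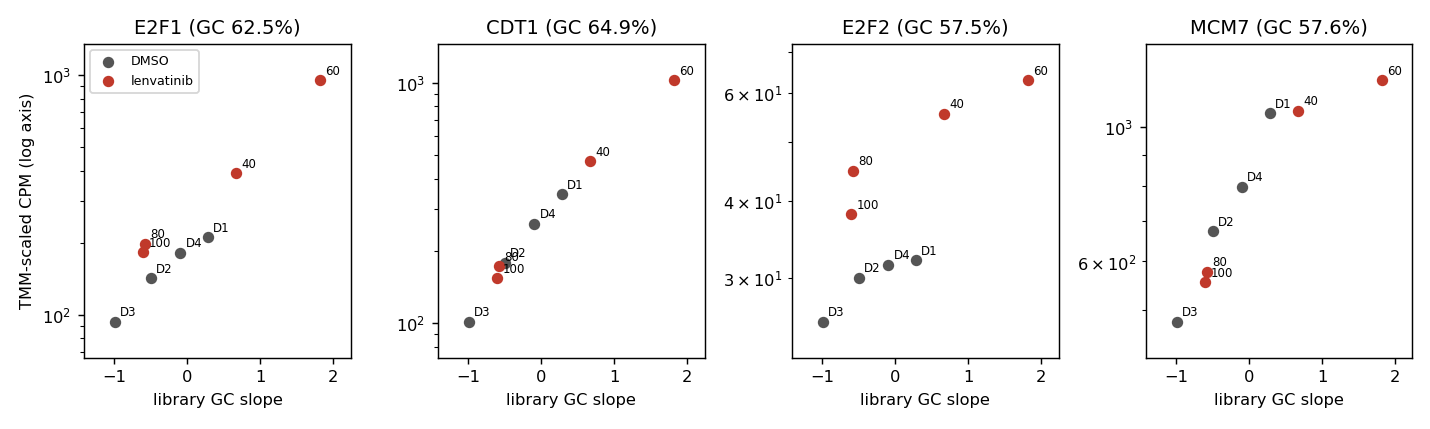
TMM-scaled CPM (vertical log axis) against the library's GC slope (horizontal axis, log2 per 10 GC points) for E2F1, CDT1, E2F2 and MCM7, with DMSO libraries D1 to D4 in grey and lenvatinib libraries labelled by dose in µM in red. At slopes near -0.6 the 80 and 100 µM libraries lie above DMSO library 2 for E2F1 (198 and 183 against 143 CPM) and below it for CDT1 (173 and 154 against 179 CPM). This sets them against 1 DMSO library and was not tested.

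The other licensing factors were not called between the arms. CDC6, the ATPase that helps to load MCM rings, stood at 61, 86, 100.3 and 65.3 CPM in DMSO and at 39, 8.37, 88.1 and 86.4 CPM with lenvatinib. ORC1, the largest subunit of the origin recognition complex, stood at 43, 42.5, 44.4 and 49.6 CPM and at 41, 14.8, 37.7 and 42.7 CPM. ORC6, its smallest subunit, stood at 8.63, 18.5, 14 and 16.1 CPM and at 7.61, 3.22, 19.8 and 23.2 CPM. In each of the 3 genes the 60 µM library is the lowest and the arms overlap. Their GC-adjusted log2 fold changes were -0.16 ± 0.22, -0.22 ± 0.23 and 0.22 ± 0.26 (SE).

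The 6 subunits of the MCM helicase ring, which act as 1 complex, differed in the library where each was highest. GC-rich MCM2 stood at 1245, 899, 634 and 1162 CPM in DMSO and at 1396, 1563, 730 and 683 CPM with lenvatinib. MCM7 stood at 1053, 672, 478 and 797 CPM and at 1063, 1193, 577 and 554 CPM. In both, the 60 µM library is the highest, and in MCM5 as well, at 1105 CPM against 225 to 610 CPM in DMSO.

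GC-poor MCM6 stood at 70.3, 101, 129 and 81 CPM in DMSO and at 52.4, 7.08, 108 and 116 CPM with lenvatinib. MCM4 stood at 96.9, 186, 221 and 132 CPM and at 91.6, 26.6, 170 and 190 CPM. MCM3, at 51.6% GC, stood at 270, 271, 285 and 260 CPM and at 299.7, 124, 300 and 324 CPM. In these 3 subunits the 60 µM library is the lowest. GC-adjusted log2 fold changes ran from -0.27 ± 0.15 for MCM2 to 0.14 ± 0.19 for MCM3 (SE), and 0 of the 6 were called.

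Of the factors that switch the loaded helicase on, 0 of 6 were called. CDC45, which binds MCM rings at firing origins, stood at 88, 68.9, 54.6 and 62.6 CPM in DMSO and at 71, 59.7, 55.7 and 50.1 CPM with lenvatinib, a GC-adjusted log2 fold change of -0.32 ± 0.16 (SE; adjusted p = 0.308, edgeR). MCM10, needed to start unwinding, stood at 8.88, 16.8, 26.2 and 15.2 CPM and at 3.98, 0, 14.7 and 15.3 CPM. Its 0 reads at 60 µM allow up to 3 counts in that library, or 0.295 CPM before TMM scaling. The GC-adjusted log2 fold change of MCM10 was -0.57 ± 0.36 (SE).

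The GINS subunits, which tie CDC45 to the helicase, differed from one another. GINS1 stood at 10.4, 18.6, 19 and 17.9 CPM in DMSO and at 14.8, 1.29, 20.3 and 19.1 CPM with lenvatinib. GINS3 stood at 16.9, 20, 17.4 and 18 CPM and at 16.6, 2.58, 14.4 and 16.9 CPM. Both are lowest at 60 µM, whereas GINS2 ran from 52.9 to 122 CPM in DMSO and stood at 107 CPM there.

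GINS4 was high in a single library. It stood at 11.2, 10.1, 12.8 and 13 CPM in DMSO and at 10.8, 6.12, 32.8 and 9.15 CPM with lenvatinib. Its reads per unit of TPM, relative to the gene's own median over the libraries, were 0.885 to 1 in DMSO and 0.995 at 100 µM but 1.66, 1.91 and 1.67 at 40, 60 and 80 µM. A range over 1.5-fold in this ratio was found in 2 of 40 members (GINS4 and TIPIN) and in 21.1% of tested genes, and its part in the GINS4 value at 80 µM was not tested.

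The polymerase genes split by GC content. POLD1, the catalytic subunit of polymerase delta, stood at 368, 189, 117 and 267 CPM in DMSO and at 449, 876, 169 and 156 CPM with lenvatinib. POLA1, that of polymerase alpha, stood at 16.2, 42.1, 73.3 and 27.3 CPM and at 6.59, 0.322, 40.6 and 43.2 CPM. PRIM1, the primase that lays down RNA primers, stood at 6.23, 12.4, 14.8 and 7.11 CPM and at 4.96, 0.966, 11.8 and 12.8 CPM. At 60 µM, POLD1 is at its highest and POLA1 and PRIM1 are at their lowest. None of the 4 genes of this group was called, and POLE, that of polymerase epsilon, had a GC-adjusted log2 fold change of 0.07 ± 0.11 (SE).

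PCNA, the sliding clamp that holds polymerases on DNA, stood at 112, 147, 133 and 132 CPM in DMSO and at 98.2, 26.1, 150 and 158 CPM with lenvatinib. The lenvatinib libraries lie on both sides of the DMSO range, and the GC-adjusted log2 fold change was -0.01 ± 0.24 (SE). Of the clamp loader, RFC1 stood at 6.49, 19.5, 50.9 and 8.48 CPM in DMSO and at 3.25, 1.93, 18.2 and 20 CPM with lenvatinib. RFC2 stood at 93.3, 69.3, 49.7 and 88.8 CPM and at 99, 124, 57.2 and 61.6 CPM. RFC1 ran from 6.49 to 50.9 CPM within DMSO alone and is a GC-poor gene, while RFC2, above 50% GC, is highest at 60 µM.

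RFC4 stood at 14.9, 28.4, 35.4 and 18.6 CPM in DMSO and at 12.7, 2.41, 30 and 25.9 CPM with lenvatinib. RFC5 stood at 55, 56.6, 49.7 and 63.9 CPM and at 56.4, 27, 57 and 56.9 CPM. RFC3 ran from 9.89 to 41 CPM in DMSO and from 4.51 to 22.8 CPM with lenvatinib. All 3 are lowest at 60 µM, and 0 of the 6 genes of the clamp and its loader were called, with GC-adjusted log2 fold changes from -0.19 ± 0.13 (RFC2) to 0.01 ± 0.21 (RFC4).

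RPA coats single-stranded DNA as a complex of 3 subunits. RPA1 stood at 275, 278, 260 and 288 CPM in DMSO and at 278, 79, 257 and 260 CPM with lenvatinib. RPA2 stood at 75.3, 62.1, 52.1 and 76.3 CPM and at 48.4, 26.7, 56.9 and 52.5 CPM. RPA3 stood at 51, 39.5, 29.7 and 44.4 CPM and at 75.5, 99.3, 35 and 37.7 CPM. At 60 µM RPA1 and RPA2 are at their lowest and RPA3 at its highest, although RPA3 is also below 50% GC. The GC-adjusted log2 fold changes were -0.15 ± 0.28, -0.43 ± 0.22 and 0.07 ± 0.12 (SE), none called.

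TIPIN, part of the complex that protects stalled forks, stood at 6.92, 8.65, 14.7 and 7.11 CPM in DMSO and at 2.44, 1.61, 8.42 and 5.37 CPM with lenvatinib. Its lenvatinib level at 80 µM lies within the DMSO range. The GC-adjusted log2 fold change was -0.68 ± 0.23 (SE), with a p of 0.0174 that did not pass adjustment over all genes (adjusted p = 0.15, edgeR).

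Among the genes of nucleotide supply, RRM2, the S phase subunit of ribonucleotide reductase, was the member whose 4 lenvatinib libraries all lie below DMSO. It stood at 109, 116, 113 and 121 CPM in DMSO and at 101, 32.7, 92.6 and 89.7 CPM with lenvatinib, an order found in 3.38% of tested genes. The arms overlap in counts per library total and in TPM. The log2 fold change was -0.54 ± 0.35 without adjustment (adjusted p = 0.874, edgeR) and -0.35 ± 0.25 with it (SE; adjusted p = 0.474).

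RRM1, the large subunit of the same enzyme, stood at 97.6, 173, 226 and 141 CPM in DMSO and at 54.1, 7.73, 165 and 178 CPM with lenvatinib. TYMS, which makes thymidylate, stood at 210, 197, 191 and 199 CPM and at 203, 100.1, 196 and 204 CPM. Apart from the 60 µM library, TYMS stayed between 191 and 210 CPM in all libraries. FEN1, the flap nuclease of Okazaki fragments, stood at 163, 170, 196 and 155 CPM in DMSO and at 204, 94.2, 189 and 196 CPM with lenvatinib.

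LIG1, the ligase that joins Okazaki fragments, stood at 74.4, 53.8, 39.3 and 61 CPM in DMSO and at 73.6, 83.1, 41.2 and 39.9 CPM with lenvatinib. Its GC-adjusted log2 fold change was -0.31 ± 0.13 (SE; adjusted p = 0.232, edgeR). UHRF1, which recruits the maintenance DNA methyltransferase to new DNA, stood at 45.6, 127, 202 and 56.4 CPM and at 42.3, 27, 138 and 132 CPM. The lenvatinib values of UHRF1 at 80 and 100 µM lie within its DMSO range, which spans 45.6 to 202 CPM.

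Reads of overlapping genes cannot be told apart here, because strandedness is not given in the sources used here. In GENCODE v29, exons of 18 members overlap those of another gene, among them TYMS with ENOSF1, FEN1 with TMEM258 and FADS2, MCM2 with TPRA1, MCM7 with AP4M1, PRIM1 with NACA and RFC4 with EIF4A2. E2F1 and E2F2 have no such overlap.

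Because the 60 µM library stood apart, the comparison was repeated without it. With GC adjustment 7 of 40 members were then called, beside 23.3% of all genes called in either direction. Higher were E2F1 (0.56 ± 0.07), E2F2 (0.59 ± 0.09) and MCM3 (0.21 ± 0.06; adjusted p = 0.0337, edgeR), beside 9.63% of all genes. Lower were RRM2 (-0.27 ± 0.07; adjusted p = 0.0222), LIG1 (-0.26 ± 0.07), TIPIN (-0.68 ± 0.21) and MCM10 (-0.46 ± 0.15), beside 13.7% of all genes (log2 fold change ± SE). Without GC adjustment 0 members and 0% of genes were called in these libraries.

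The 80 and 100 µM libraries are the deepest of their arm and have GC slopes inside the DMSO range. With these 2 libraries alone and GC adjustment, 3 of 40 members were called, beside 20.7% of all genes. E2F1 (0.61 ± 0.08; adjusted p = 0.00273, edgeR) and E2F2 (0.59 ± 0.10; adjusted p = 0.00898) were called higher, beside 9.67% of all genes. RRM2 was called lower (-0.30 ± 0.07; adjusted p = 0.0268), beside 11% of all genes. The median over the 40 members was 0.03. Without adjustment 0 members were called, beside 0% of genes, and the median was -0.04. The unadjusted fold change correlated with GC content at -0.27 over the members, beside -0.30 over 11775 genes.

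Across doses, no ordered response of the members was detected. The slope of log2 CPM per 20 µM within the lenvatinib arm was called for 0 of 40 members and 0% of genes, with and without GC adjustment. For E2F1 the slope was -0.67 ± 0.36 without GC adjustment (SE, adjusted p = 0.295, edgeR) and 0.05 ± 0.09 with it (adjusted p = 0.994). For CCNE2 it was 2.18 ± 0.69 without (adjusted p = 0.295) and 0.72 ± 0.43 with it (adjusted p = 0.994). CCNE2 had 2 counts at 40 µM and 2 at 60 µM, fewer than the 3 counts that a count of 0 allows.

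Each dose was then set against DMSO, with the spread of the single library taken to be that among DMSO libraries, so that a call compares that library, not the dose, with DMSO. At 40, 80 and 100 µM 0 members were called, beside 0% of genes. At 60 µM 23 of 40 members were called, beside 37.2% of all genes. The 19 called lower (47.5% of members, beside 25.3% of all genes) reach every role group except the E2F factors with cyclin E, Okazaki fragment maturation and methylation maintenance. Examples are CDC6 (-3.22 ± 0.49), PCNA (-2.33 ± 0.37), RRM1 (-4.37 ± 0.69) and RPA1 (-1.80 ± 0.36; log2 fold change ± SE). The 4 called higher (10% of members, beside 11.9% of all genes) were E2F1 (2.60 ± 0.45), CDT1 (2.22 ± 0.60), RPA3 (1.27 ± 0.35) and E2F2 (1.08 ± 0.28).

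With the GC slope added, the 60 µM library gave 24 calls among members (22 lower, beside 28.8% of all genes, and 2 higher, UHRF1 and RFC1, beside 5.87%), and E2F1, E2F2, CDT1 and RPA3 were not among them. The GC slopes of the 60 µM library (1.82) and of the 40 µM library (0.67) lie outside the range of the DMSO libraries, so the adjusted values of both rest on an extrapolation. In the same fit 3 members were called at 80 µM, all higher, beside 4.22% of all genes called higher and 7.15% called lower: E2F1 (0.62 ± 0.10), E2F2 (0.66 ± 0.12) and GINS4 (1.46 ± 0.19). At 100 µM E2F1 was called (0.53 ± 0.10; adjusted p = 0.0291, edgeR), beside 2.09% of all genes called higher, 4.1% called lower and 6.19% in either direction. At 40 µM 0 members were called, beside 1.78% of genes.

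Another 59 genes of the replication pathway and the E2F and RB network, listed beside the members, gave 0 calls in the comparison of the arms in either fit. Their median log2 fold change was -0.39 without GC adjustment (15 positive, 44 negative) and -0.03 with it (27 positive, 32 negative). The highest GC-adjusted values were those of RBL1, which encodes the RB relative p107, at 0.43, and RECQL4, a helicase of origin firing, at 0.40. The lowest were DBF4, the activator of the CDC7 kinase, at -0.64, and POLE4, a small subunit of polymerase epsilon, at -0.58. None of the 4 passed adjustment.

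At 60 µM, 24 of these 59 were called, beside 37.2% of all tested genes. They divide into 2 called higher (3.39%, beside 11.9% of all genes) and 22 called lower (37.3%, beside 25.3%). Those higher were RECQL4 (2.21) and CHTF18, part of an alternative clamp loader (1.69, log2 fold change for these and the next genes). Of initiation genes, ORC2, CDC7, DBF4 and TOPBP1 had 0 reads in this library, and ORC4 (-4.03), ORC5 (-4.96), MCMBP (-4.07) and the licensing inhibitor GMNN (-3.38) were called lower. Of fork and nucleotide genes, POLD3 had 0 reads, and PRIM2 (-3.31), POLE3 (-1.62) and DUT (-1.59) were called lower. Of chromatin genes, the histone chaperone ASF1A had 0 reads, and the histone mRNA binder SLBP (-2.30) and the methyltransferase DNMT1 (-1.63) were called lower. In the E2F and RB network the repressor E2F8 had 0 reads, and E2F7 (-4.67), E2F6 (-2.41), CCNA2 (-3.76), SKP2 (-1.68) and TFDP1 (-1.46) were called lower. A count of 0 in this library allows up to 3 counts, and genes at 0 are called lower without a fold.

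Of 35 genes of G2 and mitosis, 0 were called between the arms without GC adjustment (median -0.61, 10 positive and 25 negative). With adjustment 1 of the 35 was called lower, beside 1.78% of all tested genes. It was CENPE, a mitotic kinesin, with 0 reads at 40 and 60 µM and 1.82 and 1.61 CPM at 80 and 100 µM. In DMSO libraries 1 to 4 CENPE stood at 0.217, 3.63, 23.6 and 0.655 CPM. The adjusted median was -0.31, with 5 positive and 30 negative, beside -0.06 for the 40 S phase genes. The difference between the lists was not tested. Single doses set against DMSO gave further calls in the G2 and mitosis list, PLK1 among them, which are not given here.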

How the data were processed

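RNA was sequenced from 8 libraries of MHCC-97H cells. Per the file headers, the table deposited by the authors holds read counts, TPM and FPKM per gene; FPKM was not used. The deposited counts are whole numbers per gene and were tested as they stand, and the deposited TPM was used for levels per length. HISAT2, StringTie, bedtools, FastQC and the GRCh38 build are named in the submitters' processing notes. Tool versions and annotation release were not given in the sources used here.

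Testing used a robust quasi-likelihood fit in edgeR 4.0.16 (R 4.3.3) after TMM scaling, with Benjamini-Hochberg adjustment over the 11827 genes that average 1 CPM or more. It was run without and with a covariate, the library's GC slope (6 and 5 residual degrees of freedom). The SE of an edgeR value is the absolute log2 fold change divided by the square root of the quasi-likelihood F statistic. GC content and overlaps are those of GENCODE v29, and log2 CPM used a prior count of 2. DESeq2 1.42.0, limma-voom (limma 3.58.1), other scalings and filters, offsets smooth in GC, a replicate block and leaving out each library were alternatives. Library totals limit precision as counting error only: 3 counts, the most that a count of 0 allows, are 0.0802 to 0.295 CPM. Tests were first run on simulated counts drawn from a fit that held the same GC slopes. That run therefore cannot tell whether the GC adjustment suits these data.

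The members, the lists and the GC adjustment were chosen with earlier results of these data known. Values in every library are given for E2F1, CDC6, MCM2, PCNA, RRM2 and TYMS, for members called in a fit and for the 2 members of each role with the smallest GC-adjusted p. Other pathway genes are named if called or among the 2 highest or 2 lowest, apart from a gene that is not reported here; list genes of G2 and mitosis are given by counts, and CENPE was named after its values were seen, as was the detail on GINS4, MCM5, GINS2, POLE, RFC3 and the cyclins E.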

Additional observations from a re-analysis of the deposited data

Results flagged for a closer look

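Of 80 groups of 4 libraries (40 genes in 2 arms), 7 held a value far from the other 3 by Dixon's test, where chance flags about 1 in 20 groups. In the lenvatinib arm the 60 µM library was far below the others in 6 genes: MCM3 at 124 CPM, RFC5 at 27 CPM, RPA1 at 79 CPM, RRM2 at 32.7 CPM, TYMS at 100.1 CPM and FEN1 at 94.2 CPM. This library has the lowest total (10181973 counts) and the highest GC slope (1.82), and the part of either in these values was not tested. Without it, the GC-adjusted log2 fold changes of MCM3 (0.21) and RRM2 (-0.27) were called and those of the other 4 genes were not. In the DMSO arm GINS1 was far below the other libraries in DMSO library 1, at 10.4 CPM against 17.9 to 19 CPM.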

How the results depend on the processing

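The fit without the GC covariate gave 0 calls among members under all 17 alternatives, 1 of which, the offsets smooth in GC, is itself a GC adjustment and so does not give the E2F1 and E2F2 calls of the covariate. The members' median, -0.23 in that fit, was -0.36 with a replicate block, -0.0482 with offsets smooth in GC, -0.0369 with only the 80 and 100 µM libraries, and between -0.43 and -0.0348 with single libraries left out. With GC adjustment, E2F1 was called in 9 of 16 alternatives and E2F2 in 8 of 16, with positive fold changes in all of them. The 2 calls became 4 with DESeq2 (E2F1 and E2F2 higher, MCM2 and LIG1 lower), 1 without the filter (E2F1), 0 with a replicate block, and 0 to 7 with single libraries left out. The adjusted median, -0.06, was 0.0369 with library totals only, 0.0338 with only the 80 and 100 µM libraries, and between -0.17 and -0.0046 with single libraries left out. With the GC slope as a covariate, 80 µM gave 3 calls and 100 µM gave 1. The cause of these changes was not tested, and fits with libraries left out also hold fewer libraries. Samples of both arms share title numbers, and deviations of same-numbered libraries correlated at 0.63, -0.46, 0.84 and -0.61. These values cannot tell whether the numbers pair the libraries, since each lenvatinib library also has its own dose and GC slope. With the number as a block and GC adjustment, the adjusted p was 0.0698 for E2F1 and 0.105 for E2F2 (edgeR), so neither was called. No call could be checked within a dose, which holds 1 library. MCM10 had 0 reads at 60 µM, where 3 counts are 0.295 CPM, and 8.88 to 26.2 CPM in DMSO. The part of depth in this was not tested.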

Other observations

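Members were also split by an E2F match in the promoter window. The GC-adjusted median log2 fold change was -0.06 over the 18 members with a match and -0.15 over the 16 without. With E2F1 and E2F2 left out, the 16 members with a match had a median of -0.06. No test was made of this difference.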
